A study of Equus asinus with 3 samples.

Results

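Macrophages of the caput, the head of the donkey epididymis, were chosen by their marker counts, as the caput barcodes with at least 3 unique molecular identifiers (UMIs, 1 per captured transcript molecule) summed over 9 genes. These were CD68, CD163, CSF1R, C1QA, C1QB, C1QC, CD14, AIF1 and TYROBP. That sum also had to be at least as large as the sum over 8 T cell genes, CD3E, CD3D, CD3G, CD2, CD5, CCL5, IL7R and LCK. The rule found 504 of 9478 caput barcodes (5.32%, 95% Clopper-Pearson interval 4.87 to 5.79%), out of 27699 barcodes in the whole series. TYROBP was listed under a locus identifier, and without it the rule would have found 445.

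The series holds single-cell libraries of Equus asinus from the testis, the caput and the corpus (body) of the epididymis, with 1 library per tissue and no replicate. The design names 3 sexually mature males, and which of them went into which library is not stated in the labels. All tissue was kept in a storage solution and digested with collagenase IV and DNase I before droplet capture on a DNBelab C4 device. The labels describe the epididymal libraries as somatic cells and name no sort. Besides the caput members, the groups used below are the 267 of 9609 corpus barcodes that meet the same rule (2.78%), and 3 classes of caput barcodes. These are 427 T and NK cells (at least 3 T cell UMIs, and more than macrophage UMIs), 2112 luminal barcodes and 645 fibroblast barcodes. A luminal barcode had at least 3% of its UMIs in 10 genes of the duct lining, and a fibroblast barcode had at least 10 UMIs over 6 fibroblast genes.

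Macrophages are phagocytic cells that take up dead cells and debris, digest them in lysosomes and show peptides to T cells on MHC class II molecules. In the mouse epididymis they lie around the duct and between the cells of its lining, and they meet sperm proteins that the body does not otherwise see. C1q, the complement protein assembled from the C1QA, C1QB and C1QC chains, tags debris for uptake and is made by many tissue macrophages.

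The caput members held 829929 UMIs in all, with a median of 1343.5 UMIs and 895 genes per barcode, and the corpus members 150062 UMIs, with a median of 510 UMIs and 385 genes. T and NK cells had a median of 1307 UMIs and luminal barcodes a median of 1229, so depth was alike among caput classes and differed between the libraries. The deposited barcodes started at 843 UMIs in caput and at 298 in corpus. Levels are given as CPM, the UMIs of a class scaled to 1e6. With 1 library per tissue there is no test, and every interval (95%) covers counting error only. A gene is called higher or lower below where both ends of the interval around its ratio were past 2-fold and the higher side had at least 50 UMIs. The 17 genes of the rule are left out of those counts. Names of 8957 barcodes occurred in both epididymal libraries, but they are running numbers, so shared cells could not be looked for.

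The genes of the rule chose the members, and their levels describe the choice. C1QA stood at 2568 CPM in caput members and was seen in 407 of them (80.8%), against 1813 CPM in corpus members and 16.7 CPM in luminal barcodes. C1QB stood at 1846 CPM in caput members and 1606 CPM in corpus members. C1QC stood at 1635 CPM in caput members and 1086 CPM in corpus members. TYROBP, a signalling adaptor shared by myeloid and NK cells, stood at 1334 CPM in caput members, 2232 CPM in corpus members and 279.9 CPM in caput T and NK cells. CSF1R, the receptor for the growth factor that keeps macrophages alive, stood at 461 CPM in caput members and 739.7 CPM in corpus members. CD68, a lysosomal membrane protein, stood at 288 CPM in caput members and 546 CPM in corpus members, and AIF1, an actin-binding protein, at 231 CPM in caput members and 479.8 CPM in corpus members. CD163, the haemoglobin scavenger receptor, stood at 230.1 CPM in caput members and 147 CPM in corpus members, and 104 caput members had a UMI of it. CD14, which presents bacterial lipopolysaccharide, stood at 219 CPM in caput members and 1039.6 CPM in corpus members, and 96 caput members had a UMI of it. None of the 9 genes exceeded 18.0 CPM in luminal barcodes.

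The threshold lies within a continuous range of sums. The sum over the 9 genes had a median of 10 and a maximum of 98 UMIs per member. Just inside the threshold, the 82 members with a sum of 3 held CD74, which the rule did not use, at 2714 CPM. Just outside it, the 196 barcodes with a sum of 2 held it at 1069 CPM. CD74, the invariant chain of MHC class II, stood at 7570.3 CPM in the 162 members with sums of 4 to 9, at 13717 CPM in the 199 with sums of 10 to 29 and at 16266 CPM in the 61 with sums of 30 or more. DEFB119, a beta-defensin of the caput lining, ran the other way, at 3709 CPM in members with a sum of 3 and 769.8 CPM in those with 30 or more. A further 14 barcodes reached 3 macrophage UMIs but had more T cell UMIs. Of the members, 129 held at least 1 T cell UMI, and 7 held equal sums. In corpus, where barcodes are shallower, the 137 barcodes just outside with a sum of 2 already held CD74 at 16575 CPM, beside the 20561 CPM of the 80 corpus barcodes with a sum of 3.

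**Figure D1:**
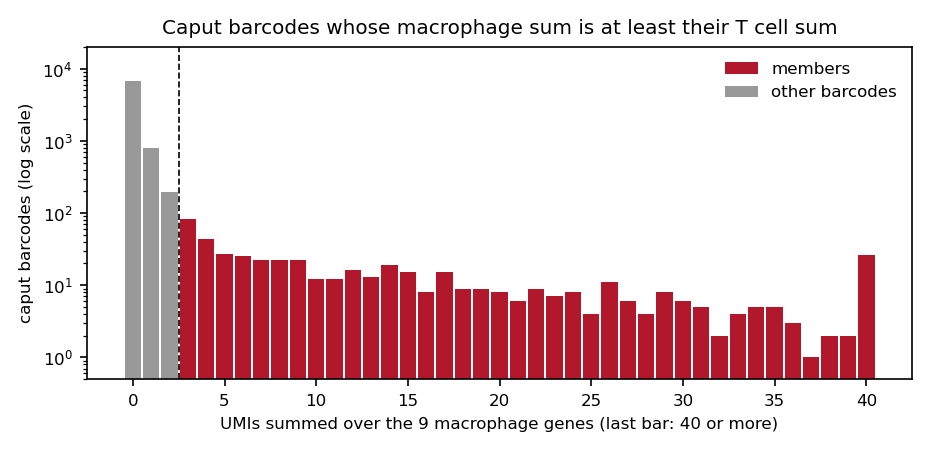
Number of caput barcodes (vertical log axis) at each UMI sum over the 9 macrophage genes (horizontal axis), for barcodes whose macrophage sum is at least their T cell sum; red bars are members and grey bars other barcodes, split by the dashed line. There is no gap between the 196 barcodes at a sum of 2 and the 82 members at a sum of 3, and the tail runs to sums of 40 or more.

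All 6 macrophage markers of the label, CD163, C1QA, C1QB, C1QC, CSF1R and CD14, had more than 50 UMIs in the members, which the rule made likely. The 14 measured monocyte genes outside the rule were mixed. They summed to 1657 CPM in members, of which LYZ alone made 1007 CPM, against 243 CPM in all other caput barcodes. S100A9 and CSF3R, defining genes of circulating monocytes and neutrophils, had 0 UMIs in the members, which allows up to 3.61 CPM each at the limit of 3 counts. S100A8 and S100A12 had 1 UMI each. VCAN, a proteoglycan of classical monocytes, had 24 UMIs in 14 members, at 28.9 CPM, against 54.0 CPM in all other caput barcodes. Of this list, LYZ, CCR2 and CD44 were higher than in all other caput barcodes (10 tested), against 2.09% of all genes tested. CCR2, the chemokine receptor with which monocytes enter tissue, stood at 157 CPM in members (130 UMIs in 98 barcodes) against 7.03 CPM in all other caput barcodes. Whether some members are monocytes cannot be settled from these genes, and the cells are called caput macrophages below for the markers that chose them.

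Most marker genes of other blood cell types had fewer than 50 UMIs in the set. Of 16 measured mast cell and granulocyte genes, none reached 50 UMIs, and MPO had 0. The 14 measured dendritic cell genes summed to 2885 CPM in members, 2875 CPM in T and NK cells and 1297 CPM in all other caput barcodes. In members, 3 of them reached 50 UMIs. Of this list, CCR7 had 0 UMIs, XCR1 2 and CLEC9A 8, and FLT3 stood at 38.6 CPM in members against 54.5 CPM in all other caput barcodes. IDO1, an enzyme that breaks down tryptophan and is often listed for dendritic cells, stood at 2401 CPM in macrophages, 2488 CPM in T and NK cells and 2426 CPM in fibroblast barcodes, so its level did not set these classes apart, and at 592 CPM in luminal barcodes. The 27 measured T and NK genes summed to 1081 CPM in macrophages against 8108 CPM in T and NK cells. They include the 8 T cell genes of the rule, which sorted both classes, so part of this contrast was fixed by the choice. Endothelial genes summed to 233 CPM in macrophages, with 5 of 16 at 0 and none at 50 UMIs, against 389 CPM in all other caput barcodes. B and plasma cell genes summed to 277 CPM in macrophages, with CD79B, CD22 and MZB1 at 0, against 251 CPM in T and NK cells.

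Duct lining transcripts were present in most members. The luminal list (22 measured genes) summed to 14113 CPM in caput macrophages, 17531 CPM in caput T and NK cells, 94511 CPM in luminal barcodes and 320 CPM in corpus macrophages. It took a median of 0.543% of UMIs per member, with a lowest of 0 and a highest of 17.3%. DEFB119 had at least 1 UMI in 380 members and 0 in 124. Thinned to 300 UMIs per barcode, it was seen in 194 of 504 macrophages (38.5%), 171 of 427 T and NK cells and 1835 of 2112 luminal barcodes (86.9%). The interval of the macrophage share ran to 42.9% and that of the T and NK share began at 35.4%. By their own UMIs, 38 members would count as luminal barcodes (at least 3% luminal UMIs) and 29 held at least 10 fibroblast UMIs. Doublets were not removed, and 40 members (7.94%) were barcodes merged from several beads, against 438 (4.88%) of the other caput barcodes.

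**Figure D2:**
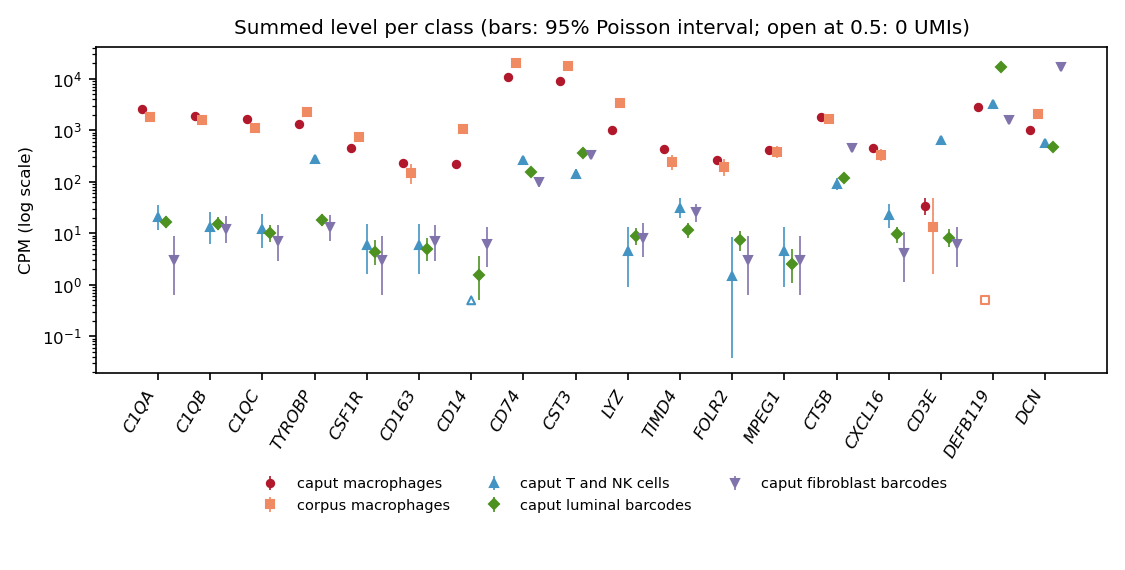
Level in CPM (vertical log axis) of 18 genes (horizontal axis) in caput macrophages, corpus macrophages and caput T and NK, luminal and fibroblast barcodes; bars are 95% Poisson intervals on summed UMIs and the open symbols at 0.5 stand for 0 UMIs. Genes from C1QA to CXCL16 are higher in both macrophage classes than in the other classes, whereas DEFB119 stands at 2788 CPM in caput macrophages and 3236 CPM in T and NK cells and has 0 UMIs in corpus macrophages.

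Against all other caput barcodes, the macrophages carried a wide set of antigen presentation, lysosomal, receptor and chemokine genes. Of 20529 genes with at least 50 UMIs on either side, 430 were higher (2.09%) and 145 lower (0.706%). These counts differ in reach, since 50 UMIs stand for 60.2 CPM in macrophages and 4.04 CPM in all other caput barcodes. A tested gene under 60.2 CPM in macrophages could not be called higher. The genes reported here among the 15 whose interval lay farthest from 1 were MPEG1, LYZ, TREM2, CD74, CCL15, DEFB1, P2RY13, MS4A6A, CCL14, CYBB, CXCL16, RNASE6, FOLR2 and CST3. Because the rule picks macrophages from the same library, these differences describe the set and test nothing. MPEG1, a pore-forming protein of phagosomes, stood at 416 CPM in macrophages against 3.64 CPM in all other caput barcodes, 114-fold higher (83.6 to 159.6). TREM2, a lipid-sensing receptor that signals through TYROBP, stood at 139 CPM in macrophages and 1.29 CPM in the others. MS4A6A, a membrane protein of myeloid cells, stood at 492 CPM in macrophages and 8.16 CPM in the others. DEFB1, a beta-defensin, stood at 435 CPM in macrophages and 6.30 CPM in the others, but 74.8% of its UMIs lay in 10 members. Among the lower genes were the luminal CST11, DEFB114, DEFB127 and ADAM7 and the sperm chromatin genes TNP1, TNP2 and PRM2. ADAM7, a sperm-binding membrane protein of the caput lining, stood at 494 CPM in macrophages and 1534 CPM in the others.

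An antigen presentation gene was seen in most of the cells. CD74 was seen in 474 of 504 macrophages (94.0%) and stood at 10860.0 CPM (10637 to 11086) against 185 CPM in all other caput barcodes, 58.8-fold higher (56.2 to 61.6). Of the 5 measured genes on the MHC class II list of 22, CD74, CTSS, IFI30 and LGMN were higher, both against all other caput barcodes and against T and NK cells, and CIITA had 31 UMIs. The shares of all genes called higher were 2.09% and 6.65%. CTSS, the protease that trims the invariant chain, stood at 1353 CPM in macrophages and 95.8 CPM in T and NK cells. IFI30, which reduces disulphide bonds of antigens, stood at 295 CPM in macrophages and 40.4 CPM in T and NK cells. B2M, the light chain of MHC class I, stood at 11752 CPM in macrophages and 7280.5 CPM in T and NK cells.

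The class II chains themselves have no symbol in the files. Gene order in the RefSeq table for the assembly EquAss-T2T_v2 places 23 coding genes between COL11A2 and BTNL2, among them the antigen processing genes PSMB8, PSMB9, TAP1 and TAP2. The 15 measured members of that stretch that carry locus identifiers summed to 26399 CPM in caput macrophages, 38151 CPM in corpus macrophages, 653 CPM in T and NK cells and 505 CPM in luminal barcodes. Of these, 12 were higher than in all other caput barcodes, against 2.09% of all genes tested. The stretch was chosen after its values were seen, and the table gives these identifiers no name.

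Lysosomal genes were higher as a group. Of 38 lysosomal genes, all measured, 18 were higher and none lower than in all other caput barcodes (37 tested), with a median log2 ratio of 1.85 over 28 genes against -0.24 over all genes at that level. Against T and NK cells 13 were higher and none lower of 30 tested, with a median of 1.42 against -0.10 over all genes. The shares of all genes tested were 2.09% higher and 0.706% lower against all other caput barcodes. Against T and NK cells they were 6.65% and 2.83%. CTSB, a cysteine protease, stood at 1787 CPM in macrophages against 89.8 CPM in T and NK cells and 119 CPM in luminal barcodes. CTSH stood at 759 CPM in macrophages against 18.0 CPM in T and NK cells, and CTSZ at 488 CPM in macrophages against 38.9 CPM in T and NK cells. PSAP, the precursor of the saposins that help degrade sphingolipids, stood at 1028 CPM in macrophages and 163 CPM in T and NK cells. LIPA, the acid lipase that frees cholesterol from its esters, stood at 188 CPM in macrophages and 22.5 CPM in T and NK cells. NPC2, which moves cholesterol out of lysosomes, was higher in luminal barcodes, at 5589.6 CPM in macrophages against 20219.9 CPM in luminal barcodes.

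Of 16 measured iron handling genes, FTL, FTH1 and HMOX1 were higher than in all other caput barcodes and none lower (14 tested). Over all genes tested, 2.09% were higher and 0.706% lower there. The same 3 iron genes were higher than in T and NK cells (4 tested), where 6.65% of all genes tested were higher. FTL, the ferritin light chain, stood at 1478 CPM in macrophages, 263 CPM in T and NK cells and 211 CPM in luminal barcodes. FTH1, the heavy chain, stood at 4170.2 CPM in macrophages, 1374 CPM in T and NK cells and 2723 CPM in luminal barcodes. HMOX1, the enzyme that opens haem, stood at 74.7 CPM in macrophages and 2.99 CPM in T and NK cells. SLC40A1, the iron exporter, stood at 43.4 CPM in macrophages and 39.4 CPM in all other caput barcodes, with 72.2% of its UMIs in 10 members.

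Several genes of long-lived tissue macrophages were expressed. Of 17 measured genes on that list outside the rule, 7 were higher than in all other caput barcodes (15 tested) and none lower. Among all genes tested, 2.09% were higher and 0.706% lower. TIMD4, a receptor for phosphatidylserine on dying cells, stood at 427 CPM in macrophages (383 to 473) against 37.3 CPM in all other caput barcodes, and 185 members (36.7%) had a UMI of it. FOLR2, a folate receptor, stood at 263 CPM in macrophages and 5.33 CPM in the others. CX3CR1, the fractalkine receptor, stood at 128 CPM in macrophages and 5.74 CPM in the others. SELENOP, a selenium carrier, was higher in macrophages at 817 CPM against 226 CPM in all other caput barcodes, but stood at 1716 CPM in fibroblast barcodes. LYVE1, MARCO and CD209 had 3, 4 and 1 UMIs in the members.

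Of 6 measured Fc receptor genes, FCGR1A, FCER1G and FCGRT were higher than in all other caput barcodes and none lower (5 tested). Of 19 measured complement genes outside the rule, C3AR1, C5AR1 and ITGAM were higher and CLU was lower (15 tested). The shares over all genes tested were 2.09% higher and 0.706% lower. FCER1G, the shared signalling chain of Fc receptors, stood at 318 CPM in macrophages and 37.4 CPM in T and NK cells. FCGR1A, a high-affinity IgG receptor, stood at 107 CPM in macrophages, with 1 UMI in T and NK cells. C3AR1 stood at 127 CPM in macrophages and 7.48 CPM in T and NK cells, and C5AR1 at 113 CPM in macrophages, with 1 UMI in T and NK cells. They bind the complement fragments C3a and C5a. AXL, a receptor that bridges to dying cells, stood at 109.6 CPM in macrophages but at 178 CPM in fibroblast barcodes. MERTK, of the same family, stood at 62.7 CPM in macrophages and 36.5 CPM in all other caput barcodes, with a ratio of 1.72 (1.26 to 2.29). Of 36 measured scavenger and phagocytic receptor genes outside the rule, 6 were higher than in all other caput barcodes and none lower (30 tested).

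Among signals that recruit leukocytes, 6 of 17 measured chemokine genes were higher than in all other caput barcodes and CX3CL1, the fractalkine gene, was lower (10 tested). For comparison, 2.09% of all genes tested were higher and 0.706% lower. CXCL16, which attracts T and NK cells that carry CXCR6, stood at 452 CPM in macrophages and 22.5 CPM in T and NK cells. CXCL10, induced by interferon, stood at 407 CPM in macrophages and 2.99 CPM in T and NK cells, with 45.6% of its UMIs in 10 members. CCL15 stood at 334 CPM in macrophages and 2.99 CPM in T and NK cells, and CCL14 at 86.8 CPM in macrophages, with 1 UMI in T and NK cells. CXCL8 stood at 74.7 CPM in macrophages, with 82.3% of its UMIs in 10 members. Of 25 measured cytokine genes, IL1RN, IL18 and GRN were higher than in all other caput barcodes and none lower (12 tested), and IFNG was lower than in T and NK cells. IL10 had 7 UMIs, IL6 1 and TNF 25. IL18, which acts on T and NK cells, stood at 95.2 CPM in macrophages and 18.0 CPM in T and NK cells. IL1RN, the natural antagonist of interleukin 1, stood at 117 CPM in macrophages, with 1 UMI in T and NK cells.

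Against T and NK cells, the other leukocytes of the same library, 256 of 3849 genes were higher in macrophages (6.65%) and 109 lower (2.83%). The higher genes reported by name were LYZ, CST3, DEFB1, CXCL10, CD74, MS4A6A, MPEG1, FOLR2 and CCL15. CST3, which inhibits cysteine proteases, stood at 9175 CPM in macrophages (8971 to 9384) and 142 CPM in T and NK cells, 64.5-fold higher (52.7 to 79.9). The named lower genes were F2R, XCL1, KLRK1, TNP1, GZMA, CD7, ZNF683, CD8A, LBH and KLRB1, most of them cytotoxic lymphocyte genes. GZMA, a protease of killer cells, stood at 33.7 CPM in macrophages and 436 CPM in T and NK cells. XCL1, a chemokine for dendritic cells, stood at 48.2 CPM in macrophages and 629 CPM in T and NK cells. CD4, on the T and NK list, was higher in macrophages, at 149 CPM against 18.0 CPM in T and NK cells. None of the luminal genes differed between these classes past 2-fold (17 tested).

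Immediate-early genes, which switch on within minutes of a stimulus or of tissue digestion, were high in the macrophages relative to the rest of the library. Of 46 measured, 28 were higher than in all other caput barcodes and none lower (42 tested), while 5 were higher and 1 lower than in T and NK cells (33 tested). Over all genes tested, the shares were 2.09% and 0.706% against all other caput barcodes, and 6.65% and 2.83% against T and NK cells. FOS stood at 2324 CPM in macrophages, 2076 CPM in T and NK cells and 64.4 CPM in luminal barcodes. ATF3 stood at 445 CPM in macrophages and 21.0 CPM in T and NK cells, and DUSP1 at 722 CPM in macrophages and 41.9 CPM in T and NK cells. The part of storage and digestion in these levels was not tested.

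The members of the set differed among themselves in C1q and in LYZ. C1q, whose chains belong to the rule and supply much of its sum, had at least 1 UMI in 468 of 504 members, which describes the choice. LYZ, lysozyme, an enzyme that cuts bacterial cell walls, is outside the rule and was concentrated. Only 95 members (18.8%) had a LYZ UMI, 65 of them with 3 or more and 30 with 1 or 2, and 10 members held 43.9% of its UMIs. The other 409 had none. Outside the macrophages, LYZ stood at 4.49 CPM in T and NK cells and 8.84 CPM in luminal barcodes.

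**Figure D3:**
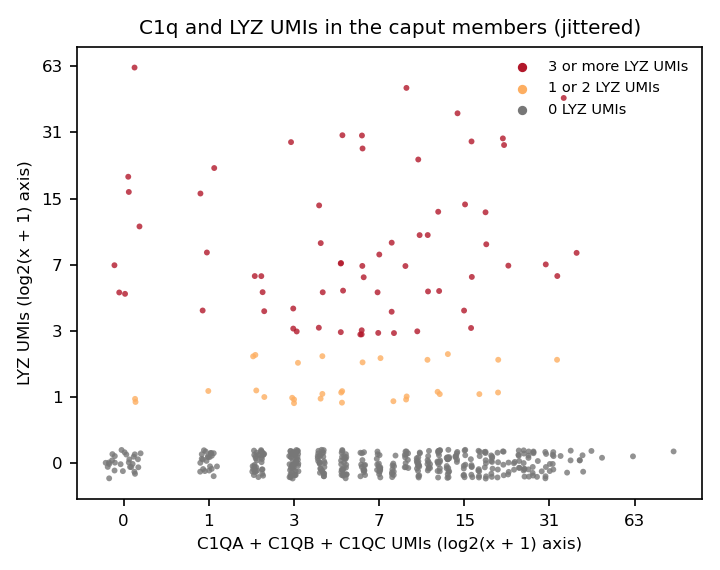
LYZ UMIs (vertical axis, log2(x + 1)) against the summed UMIs of C1QA, C1QB and C1QC (horizontal axis, log2(x + 1)) in each of 504 caput macrophages, 1 jittered point per barcode; red, 3 or more LYZ UMIs (65 members), orange, 1 or 2 (30), grey, 0 (409). LYZ-rich members occur along most of the C1q range and most members have no LYZ at any C1q level.

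The LYZ split was chosen after the values were seen. In the 65 members with 3 or more LYZ UMIs, 13 genes other than LYZ were higher than in the 409 members with 0 (0.513% of 2536), and 25 were lower (0.986%). These counts differ in reach, since 50 UMIs stand for 390 CPM in LYZ-rich members and 77.7 CPM in those without LYZ. The 12 higher genes with a symbol were IL1RN, DEFB1 (74.8% of its UMIs in the set lay in 10 members), CPVL, CLEC5A, VIM, ANXA1, TPM4, GLIPR1, ABCA6, SLC2A3, ZFP36 and CST3. IL1RN stood at 421 CPM in LYZ-rich members and 65.2 CPM in members without LYZ, 6.46-fold higher (4.24 to 9.91). CPVL, a carboxypeptidase, stood at 952 CPM in LYZ-rich members and 203 CPM in those without, and CLEC5A, a TYROBP-coupled lectin, at 421 CPM in LYZ-rich members and 77.7 CPM in those without. VIM, the filament protein vimentin, stood at 968 CPM in LYZ-rich members and 247 CPM in those without, and ANXA1, annexin A1, at 921 CPM in LYZ-rich members and 325 CPM in those without. CST3 stood at 16410.1 CPM in LYZ-rich members and 7607 CPM in those without.

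Genes of the rule also ran differently along the LYZ split and are given as values. CD163 stood at 39.0 CPM in LYZ-rich members and 284 CPM in members without LYZ. CD14 stood at 484 CPM in LYZ-rich members and 155 CPM in those without, and C1QA at 1764 CPM in LYZ-rich members and 2823 CPM in those without. S100A4, a calcium-binding protein of motile leukocytes, stood at 273 CPM in LYZ-rich members and 6.21 CPM in those without, on 42 UMIs in the whole set. With every member thinned to 800 UMIs, 3 held both LYZ and CD163, 72 held LYZ alone, 71 CD163 alone and 358 neither. So CD163 was seen in 3 of the 75 LYZ-positive members and in 16.6% of the LYZ-negative ones. Monocyte-defining genes were near 0 in the LYZ-rich members too, with 0 UMIs of S100A8, S100A9 and CSF3R, 1 of S100A12 and 2 of VCAN. CCR2 stood at 187 CPM in LYZ-rich members and 154 CPM in those without LYZ. The dendritic cell list summed to 4175 CPM in LYZ-rich members and 2597 CPM in those without LYZ. Whether some LYZ-rich members are dendritic cells was not tested.

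Depth and foreign transcripts moved with this split. LYZ-rich members had a median of 1816 UMIs, and those without LYZ a median of 1292. The luminal list summed to 7608 CPM in LYZ-rich members and 15469.9 CPM in those without, very long genes, a sign of nuclear RNA, to 3729.9 CPM in LYZ-rich members and 5712 CPM in those without, and the T and NK list to 741 CPM in LYZ-rich members and 1143 CPM in those without. DEFB119 and BSPH1, of the luminal list, were among the lower genes, as was CTSW, a protease of cytotoxic lymphocytes. The part of these transcripts in the split was not tested. Leaving out the 38 members with at least 3% luminal UMIs gave 11 higher and 20 lower genes.

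**Figure D4:**
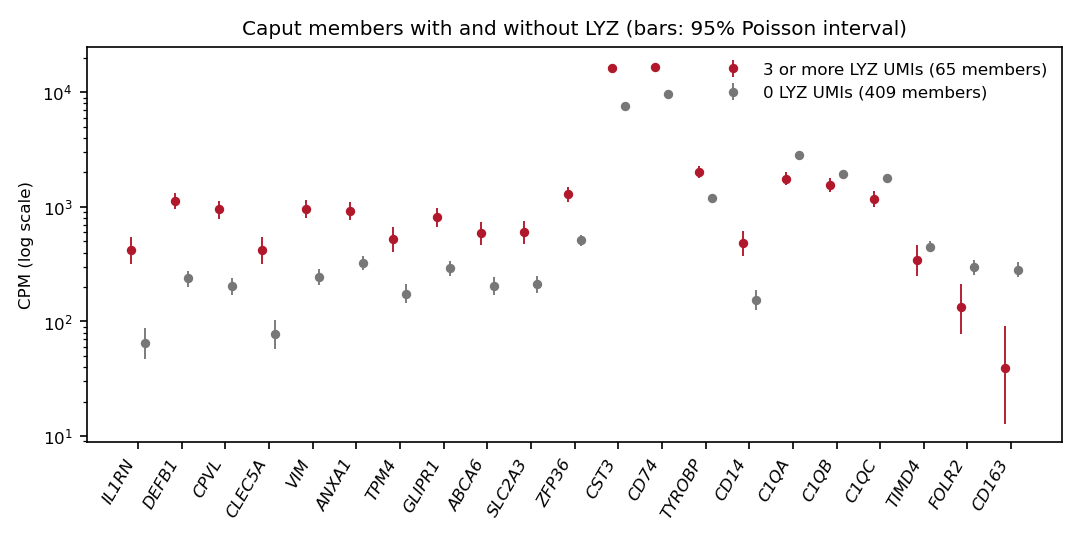
Level in CPM (vertical log axis) of the 12 named genes higher in LYZ-rich members and of 9 further macrophage genes (horizontal axis), in the 65 members with 3 or more LYZ UMIs (red) and the 409 with 0 (grey); bars are 95% Poisson intervals on summed UMIs. From IL1RN to CST3 the red points lie above the grey ones, and for CD163 the red point (39.0 CPM) lies below the grey one (284 CPM).

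The 36 members with 0 C1q UMIs entered the set through the other genes of the rule, mostly TYROBP, which NK cells share. They held 91 UMIs of TYROBP, 17 of CD163, 12 of CD14, 10 of AIF1, 9 of CSF1R and 8 of CD68. Against the 468 with C1q, 5 genes were higher (0.159% of 3146) and 73 lower (2.32%). These counts differ in reach, since 50 UMIs stand for 807 CPM in members without C1q and 65.1 CPM in those with it. With both sides thinned to the same total, 5 were higher and 12 lower, and with a minimum of 10 UMIs 54 and 73. Without thinning and at the minimum of 50 UMIs, the higher ones were CTSW, VIM and the fibroblast matrix genes COL3A1, DCN and COL1A2. CTSW stood at 1145 CPM in members without C1q and 56.0 CPM in those with it, and DCN, the proteoglycan decorin, at 2791 CPM in members without C1q and 863 CPM in those with it. Lower were CXCL16, DEFB1, PEA15, CREG1 and FOLR2, which had 0 UMIs in members without C1q (10 members held 74.8% of the DEFB1 UMIs), and FAM149A, CXCL10, CTSB and PLTP. CXCL16, at 488 CPM in members with C1q, was at least 10.1-fold lower in those without, taking 3 counts over the 36 barcodes as the floor. CTSB stood at 258 CPM in members without C1q and 1910.3 CPM in those with it.

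Markers of other cell types moved with the absence of C1q. The T and NK genes outside the rule summed to 3275 CPM in members without C1q and 599 CPM in those with it, and the fibroblast list to 7276 CPM in members without C1q and 2459.8 CPM in those with it. CD74 stood at 4259 CPM in members without C1q and 11393 CPM in those with it. The part of mixed barcodes, and of T or NK cells taken in by the rule, in this comparison was not tested. Among members with at least 5 UMIs of the rule genes, 1 gene was higher and 2 lower. Most members without C1q had a sum under 5 and dropped out there, so few barcodes were left on that side.

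Between caput and corpus macrophages, 85 of 3493 genes were higher in caput (2.43%) and 27 lower (0.773%). The 2 sides differ in reach, since 50 UMIs stand for 60.2 CPM in caput macrophages and for 333 CPM in corpus macrophages. With both sides thinned to the same total, 24 genes were higher and 22 lower. By the mean over barcodes of their CPM the counts were 477 and 50, but there the ratio alone had to pass 2-fold, with no interval. The rule applied to barcodes thinned to 300 UMIs took 218 caput barcodes, with 8 genes higher and 6 lower. Each tissue is 1 library, so tissue, animal, depth and handling cannot be told apart.

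The genes higher in caput macrophages were mostly duct lining genes. The 10 named were DEFB119, BSPH1, EDDM13, SPINK2, MUC15, GSTM3, CLU, DEFB113, RNASE10 and CDO1. DEFB119 stood at 2788 CPM in caput macrophages and had 0 UMIs in corpus macrophages, at least 139-fold higher with 3 counts over the corpus members as the floor, and it stood at 17136 CPM in caput luminal barcodes. BSPH1, which codes for a sperm-binding protein, stood at 3089 CPM in caput macrophages, 26.7 CPM in corpus macrophages and 21097 CPM in caput luminal barcodes. All 16 luminal genes tested were higher in caput macrophages. Of the 85 genes, 64 stood at least 3 times as high in caput luminal barcodes as in caput macrophages, and 79 stood higher in luminal, fibroblast or T and NK barcodes than in the macrophages. NPC2, a lysosomal gene among the 85, was among those 64. The part of free luminal RNA in these differences was not tested, and without the 38 luminal-rich members 64 genes were higher.

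For 6 of the 85, caput macrophages stood above all 3 other caput classes. They were LRP4, MACC1, NEK2 and 3 locus identifiers with no name, and were singled out after their values were seen. LRP4, a receptor of the LDL receptor family, stood at 128 CPM in caput macrophages, 20.0 CPM in corpus macrophages (3 UMIs) and 11.2 CPM in caput fibroblast barcodes, 6.39-fold higher than in corpus macrophages (2.13 to 31.5). MACC1 stood at 112 CPM in caput macrophages and had 0 UMIs in corpus macrophages. NEK2, a centrosome kinase, had 54 UMIs, 88.9% of them in 10 members, and its 65.1 CPM lay below the 66.9 CPM of all other caput barcodes together. LOC106832730 stood at 424 CPM in caput macrophages, 13.3 CPM in corpus macrophages and 7.26 CPM in caput luminal barcodes, and was seen in 173 members. LOC106844669, which lies between CCL5 and HEATR6 beside CCL14 and CCL4, stood at 782 CPM in caput macrophages, 219.9 CPM in corpus macrophages and 8.98 CPM in caput T and NK cells.

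The named genes lower in caput macrophages were S100A4, GPNMB, NR4A2, S100A6, PPP1R15A, VIM, APOE, LYZ, NR4A1 and ATF3. S100A4 stood at 50.6 CPM in caput macrophages and 573 CPM in corpus macrophages, 11.3-fold lower in caput (7.74 to 16.8). GPNMB, a lysosomal glycoprotein of lipid-laden macrophages, stood at 106 CPM in caput macrophages and 953 CPM in corpus macrophages, 8.99-fold lower (6.84 to 11.9). Without thinning it was seen in 38 of 504 caput macrophages and 27 of 267 corpus macrophages. Thinned to 300 UMIs per barcode, GPNMB was seen in 7 of 504 caput macrophages (1.39%) and 26 of 265 corpus macrophages (9.81%). It stood at 82.4 CPM in caput luminal barcodes. LYZ stood at 1007 CPM in caput macrophages and 3352 CPM in corpus macrophages, 3.33-fold lower (2.97 to 3.72). At rule sums of 10 to 29, however, LYZ was the higher in caput, at 1512 CPM against 367 CPM in 21 corpus members. Those members had a median of 1489 UMIs in caput and 597 UMIs in corpus, so equal sums were not matched for depth. APOE, which carries cholesterol out of cells, stood at 859 CPM in caput macrophages and 2992 CPM in corpus macrophages, while corpus fibroblast barcodes held it at 23795 CPM. C5AR1 stood at 113 CPM in caput macrophages and 399.8 CPM in corpus macrophages. Of the 27 genes, 4 stood higher in corpus fibroblast barcodes than in corpus macrophages, APOE, TAGLN2, VIM (1509 CPM in corpus fibroblast barcodes and 1446 CPM in corpus macrophages) and 1 gene without a symbol. The part of fibroblast RNA in these was not tested.

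**Figure D5:**
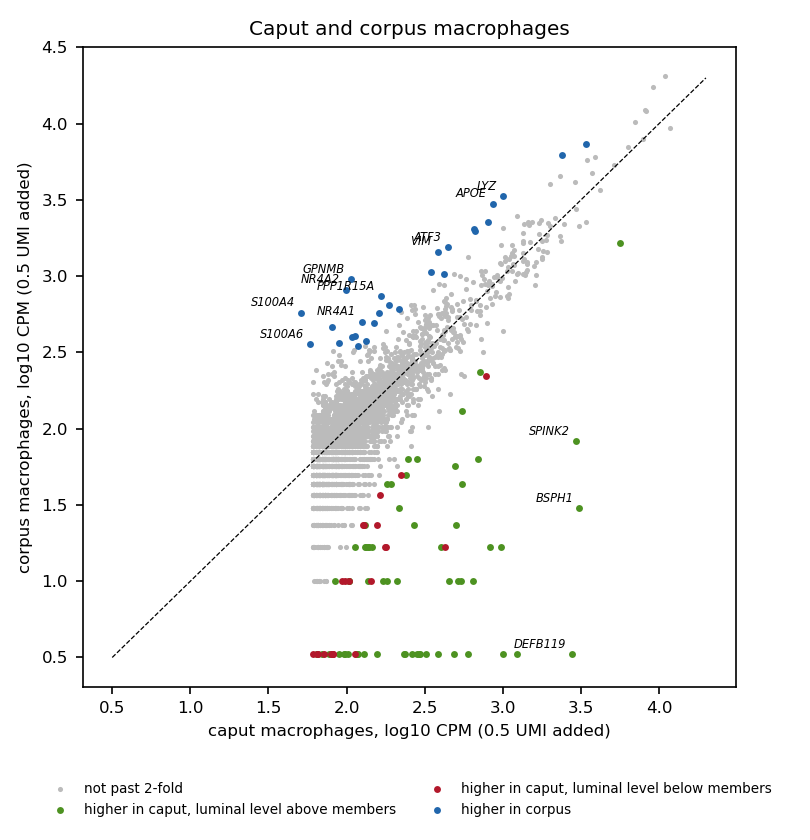
Level of 3493 genes in caput macrophages (horizontal axis, log10 CPM) and corpus macrophages (vertical axis, log10 CPM), 0.5 UMI added, 1 point per gene, with the line of equal levels dashed. Green and red points are the 85 genes higher in caput, green where luminal barcodes stand above the caput macrophages (64 genes), and blue points are the 27 higher in corpus, among them S100A4, GPNMB and LYZ.

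Of 31 immediate-early genes tested (46 measured), 10 were lower in caput macrophages, none was higher and 21 passed in neither direction, with a median log2 ratio of -1.14 against -0.03 over all genes. Among all genes tested, 0.773% were lower and 2.43% higher. NR4A2, a nuclear receptor induced by stimulation, stood at 98.8 CPM in caput macrophages and 813 CPM in corpus macrophages. ATF3 stood at 445 CPM in caput macrophages and 1539 CPM in corpus macrophages, PPP1R15A at 166 CPM in caput macrophages and 739.7 CPM in corpus macrophages, and ZFP36 at 653 CPM in caput macrophages and 2032 CPM in corpus macrophages. The whole list summed to 14000.0 CPM in caput macrophages and 28648 CPM in corpus macrophages. It also summed lower in the rest of the caput library, at 3305 CPM in all other caput barcodes against 6263 CPM in all other corpus barcodes. A difference in handling between the tissues was not tested.

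Many other lists held few or no genes past 2-fold between the regions. Resident macrophage genes had none of 8 tested, with a median log2 ratio of -0.08. Scavenger receptors had none of 13, chemokines none of 6, cytokines none of 5 and MHC class II genes none of 4. Over all 3493 genes tested, 2.43% were higher and 0.773% lower in caput macrophages. At that share, lists of 4 to 13 genes would mostly hold none. Ribosomal protein genes had none of 55, at a median of 0.10. Levels of TIMD4 were 427 CPM in caput macrophages and 239.9 CPM in corpus macrophages, and of CD74 10860.0 CPM in caput macrophages and 20512 CPM in corpus macrophages. A gene that misses the 2-fold rule is not shown to be at the same level.

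At equal depth, with each barcode thinned to 300 UMIs (2 corpus members were too shallow), C1QA was seen in 46.0% of caput macrophages (41.6 to 50.5) and 35.5% of corpus macrophages (29.7 to 41.6), against 0.473% of luminal barcodes. CD14 was seen in 4.17% of caput macrophages and 26.0% of corpus macrophages, and in 0.0473% of luminal barcodes. LYZ was seen in 10.7% of caput macrophages (8.15 to 13.7) and 33.6% of corpus macrophages (27.9 to 39.6), against 0.284% of luminal barcodes. CD163 was seen in 6.15% of caput macrophages and 2.64% of corpus macrophages, and in 0.0947% of luminal barcodes. Without thinning, 80.8% of caput macrophages held C1QA, 18.8% LYZ and 20.6% CD163. The rule counts C1q, CD14 and CD163 and so takes part in these shares. LYZ is not counted, but its level moved with the rule's sum and did so differently in each region. At sums of 3 it stood at 172 CPM in caput and 4404 CPM in corpus members, and at sums of 4 to 9 at 862 CPM in caput and 3338 CPM in corpus members. At sums of 10 to 29 it stood at 1512 CPM in caput members and 367 CPM in the 21 corpus members, the opposite direction. Equal sums were not matched for depth. Median UMIs were 1126.5 in caput and 459 in corpus members at sums of 3, and 1489 and 597 at sums of 10 to 29.

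The LYZ-positive and LYZ-negative macrophages of the regions were set side by side, sorting on the thinned counts. This gave 54 LYZ-positive and 450 LYZ-negative caput macrophages, and 89 LYZ-positive and 176 LYZ-negative corpus macrophages. S100A4 stood at 269 CPM in LYZ-positive caput macrophages and 893 CPM in LYZ-positive corpus macrophages, and at 20.6 CPM in LYZ-negative caput macrophages and 403 CPM in LYZ-negative corpus macrophages. It was thus higher in corpus within each class, and higher with LYZ within each region. VIM stood at 988 CPM in LYZ-positive caput macrophages and 2431 CPM in LYZ-positive corpus macrophages, and at 299 CPM in LYZ-negative caput macrophages and 919 CPM in LYZ-negative corpus macrophages. In corpus, GPNMB and APOE were mainly in the LYZ-negative class. GPNMB stood at 93.2 CPM in LYZ-negative caput macrophages and 1446 CPM in LYZ-negative corpus macrophages, and had 3 UMIs in LYZ-positive corpus macrophages. Its corpus level rests on 27 of the 267 corpus macrophages. APOE stood at 924 CPM in LYZ-negative caput macrophages and 4091 CPM in LYZ-negative corpus macrophages, and at 389 CPM in LYZ-positive caput macrophages and 1007 CPM in LYZ-positive corpus macrophages. C1QA stood at 1795 CPM in LYZ-positive caput macrophages and 513 CPM in LYZ-positive corpus macrophages, and at 2674 CPM in LYZ-negative caput macrophages and 2531 CPM in LYZ-negative corpus macrophages. DEFB1 stood at 1297 CPM in LYZ-positive caput macrophages, 317 CPM in LYZ-negative caput macrophages and 1085 CPM in LYZ-negative corpus macrophages, and had 2 UMIs in LYZ-positive corpus macrophages. Its caput levels rest on few barcodes, with 74.8% of its UMIs in 10 of the 504 members.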

How the data were processed

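Each library came as a matrix of raw counts: the authors deposited whole UMI numbers with no normalization, made with PISA 0.12 per the file headers. Cell Ranger 2.1.1 stands in the submitters' processing notes with no stated role, and no aligner or build is named in the sources at hand. Barcode and feature names are other deposited columns that hold no measurement. Locus identifiers without a symbol were looked up in RefSeq's donkey table (EquAss-T2T_v2, for names and neighbours only), which named 749 of 18266. A minimum of 200 genes left out 2 corpus barcodes. No doublet caller was run.

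Members, gene lists, thresholds and comparisons were chosen with earlier results of these data known. Counts were summed per class and scaled to CPM, with exact Poisson intervals for levels, Clopper-Pearson intervals for shares and conditional binomial intervals for ratios (95%). They cover counting error only. A ratio against 0 UMIs is a bound at 3 counts over the group. List medians took genes with a mean of at least 50 CPM, 0.5 UMIs added. Shares at equal depth used barcodes thinned to 300 or 800 UMIs.

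Named were all genes of the rule, the 10 genes per direction with a symbol and the interval farthest from 1 (15 for genes higher than in all other caput barcodes), and per list the 4 with the most UMIs or any past 2-fold. Other genes were chosen after their values were seen, and some results are not reported here. Calls were tested on simulated Poisson counts, which held no spread between barcodes or libraries. That test could not show whether calls hold under such spread. Software was Python 3.11.15 with numpy 2.4.6, scipy 1.17.1 and pandas 2.3.3; figures used matplotlib 3.10.9.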

Additional observations from a re-analysis of the deposited data

Results flagged for a closer look

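A signal of the rule appeared in the testis library, which no comparison uses. There, 15 of 8610 barcodes (0.174%, 95% interval 0.0975 to 0.287%) met the rule of the caput members, with a median of 3119 UMIs. CD74 stood at 8271 CPM and CST3 at 17453 CPM in them. LYZ stood at 3500.1 CPM and C1QA, on 9 UMIs, at 141 CPM. They are too few for a comparison.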

How the results depend on the processing

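Of 320 values of 20 named genes under 16 other settings, 282 kept their direction and stayed past 2-fold, 38 kept their direction but no longer passed, and 0 turned. These genes were picked as the farthest from 1 between caput and corpus macrophages, and every setting reused the same libraries. A turn was therefore unlikely from the start. Counts moved more, and the cause was not tested unless the setting itself lowers the number of barcodes, UMIs or genes. Thinning the barcodes to 300 UMIs before the rule gave 218 members; the other rules gave 375 to 700. Counts below give genes higher, then genes lower, in the caput macrophages or in the first class named. Those by the mean of CPM needed only a ratio past 2-fold, with no interval, which is a looser criterion. Against corpus macrophages, the counts were 174 and 59 with a minimum rule sum of 2, 52 and 13 with 5, 46 and 14 with at least 500 genes per barcode, 38 and 5 past 4-fold, 477 and 50 by the mean over barcodes of CPM, and 8 and 6 with the rule at 300 UMIs. Equal totals gave 24 higher, a minimum of 10 UMIs 77 lower, one of 100 UMIs 14 lower and the files' own symbols 15 lower. Higher genes were 75.9% of the calls as reported, 52.2% with equal totals, 55.2% with a minimum of 10 UMIs and 90.5% by the mean of CPM. Genes on the lists were 12 higher with equal totals, 28, 9 and 3 lower with 10 UMIs, 100 UMIs and 4-fold, and 47 and 25 by the mean of CPM. Against T and NK cells the counts were 142 and 45 past 4-fold and 449 and 250 by the mean of CPM, with 185 lower at 10 UMIs and 68 lower at 100. Against all other caput barcodes, 729, 278 and 228 were higher with 10 UMIs, 100 UMIs and 4-fold, and 56, 443, 53, 1 and 5241 lower with a rule sum of 2, of 5, equal totals, 4-fold and the mean of CPM. Members without C1q against those with it gave 1 and 2 with a rule sum of 5, 2 and 22 without T cell UMIs, 1 and 14 past 4-fold and 8 and 709 by the mean of CPM, with 54 and 1 higher at 10 and 100 UMIs, 140 lower with a rule sum of 2 and 12 lower with equal totals. Members with 1 or more LYZ UMIs had 12 genes lower. Shares of members with a UMI were 73.2% for C1QA, 14.7% for CD163 and 14.9% for LYZ at 800 UMIs, and 80.8%, 20.6% and 18.8% with no thinning. At the depth of corpus, genes under 333 CPM in corpus macrophages could not be called lower in caput. No paired analysis was possible because each tissue is 1 library.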
